A study of Mus musculus with 6 samples.

Results

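The genes described here carry acetyl units between the mitochondrion and the cytosol, make them, or handle the pyruvate and citrate around these steps. They were chosen by symbol as a list of 10: Slc25a1, Acly, Aco1, Mpc1, Mpc2, Me1, Acss1, Acss2, Crat and Acat1. The deposited table holds 15452 genes, and 9 of the 10 were found in it; Me1 was not analysed here. All 9 passed the filter on low counts and were tested.

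RNA was measured in cultures of mouse Th17 cells, a helper T cell subset defined by interleukin 17. Naive CD4+ cells, sorted from spleen and lymph nodes, were stimulated for 3 days with plate-bound anti-CD3 (5 μg/mL) and anti-CD28 (1 μg/mL), together with IL-6 (30 ng/mL), TGFβ (2 ng/mL) and anti-IFNγ (5 μg/mL). One group of 3 libraries, called WT, came from PDHfl/fl mice, which carry floxed alleles without Cre. The other group of 3, called knockout, came from PDHfl/fl mice that also carried CD4 Cre, a recombinase switched on during T cell development, and is labelled as lacking pyruvate dehydrogenase (PDH). Both groups carry the floxed alleles, and Cre is present in the knockout group alone, so an effect of Cre and an effect of the deletion cannot be told apart. No age of the mice is given. Whether each replicate is its own animal or culture is not stated either, and the p-values then reflect only how far these libraries scatter, which may be technical.

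Pyruvate enters mitochondria through a carrier made of the MPC1 and MPC2 subunits, and PDH turns it into acetyl-CoA, which joins oxaloacetate to form citrate. Acetyl-CoA cannot cross the inner mitochondrial membrane, so citrate is exported by the carrier SLC25A1 and split again in the cytosol by ATP citrate lyase, ACLY, to supply fatty acid synthesis, sterol synthesis and protein acetylation. Other routes bypass PDH: the synthetases ACSS1 (mitochondrial) and ACSS2 (cytosolic and nuclear) make acetyl-CoA from acetate, CRAT exchanges acetyl groups between CoA and carnitine, and ACAT1 splits acetoacetyl-CoA from ketone bodies and amino acids into acetyl-CoA. In activated T cells these routes feed growth and effector functions.

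The labels and libraries were checked before the 9 genes were read. Total counts per library ran from 33802154 to 40407124. The genotype labels name PDH while the titles spell the locus PHD, and the floxed gene is not named. Pdha1, the E1 alpha subunit gene, fell from 248 ± 10.2 to 193 ± 6.33 CPM (SD, n = 3), and counts over a whole gene do not test the loss of an exon. In knockout replicate 2, 4.948% of counts lay on a single entry, against at most 1.397% on the top entry of any other library. All 7 T cell markers and all 7 Th17 markers had counts in every library. Their sums ranged from 2481 to 2546 CPM in WT and from 2037 to 2247 CPM in knockout for T cell markers, and from 925 to 1235 CPM and from 607 to 773 CPM for Th17 markers. The summed 12 B cell markers ranged from 94.8 to 190 CPM in WT and from 235 to 473 CPM in knockout, by library totals. Without Cd74 they were highest in WT replicate 2 (131 CPM) and knockout replicates 2 and 3 (152 and 228 CPM), against 57.5 to 69.2 CPM elsewhere. The summed 4 CD8 and cytotoxic markers in the table ranged from 25.4 to 25.8 CPM in WT and from 11.0 to 27.7 CPM in knockout, and the 7 myeloid markers from 9.16 to 23.2 CPM and from 5.71 to 10.0 CPM. Klrd1, the NK cell marker present, lay between 4.36 and 7.20 CPM in WT and between 2.52 and 3.15 CPM in knockout, and the 2 gamma delta T cell markers present summed to 1.88 to 2.74 CPM and 3.75 to 5.27 CPM. The part of these cells in the results was not tested.

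Levels below are CPM, counts scaled to a common library size with TMM factors, and changes are log2 fold changes of knockout over WT with their standard errors. A gene is said to rise or fall when its adjusted p from edgeR's quasi-likelihood test, adjusted over all 15361 tested genes, was under 0.05. Of the 9 genes, 4 fell (Acss1, Crat, Acat1 and Slc25a1), none rose and 5 were not called (Acly, Aco1, Mpc1, Mpc2 and Acss2). The decreases were to 0.44, 0.59, 0.70 and 0.81 times the WT level. The 4 called genes are 44.4% of the 9, and 47.6% of all tested genes were called, 23.1% as higher and 24.5% as lower. The median log2 fold change was -0.15 over the 9 genes and 0.01 over all tested genes. Knockout and WT values did not overlap in 6 of the 9 (66.7%), against 58.2% of all tested genes. In bulk RNA, fewer cells that express a gene and less of its RNA per cell cannot be told apart.

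**Figure D1:**
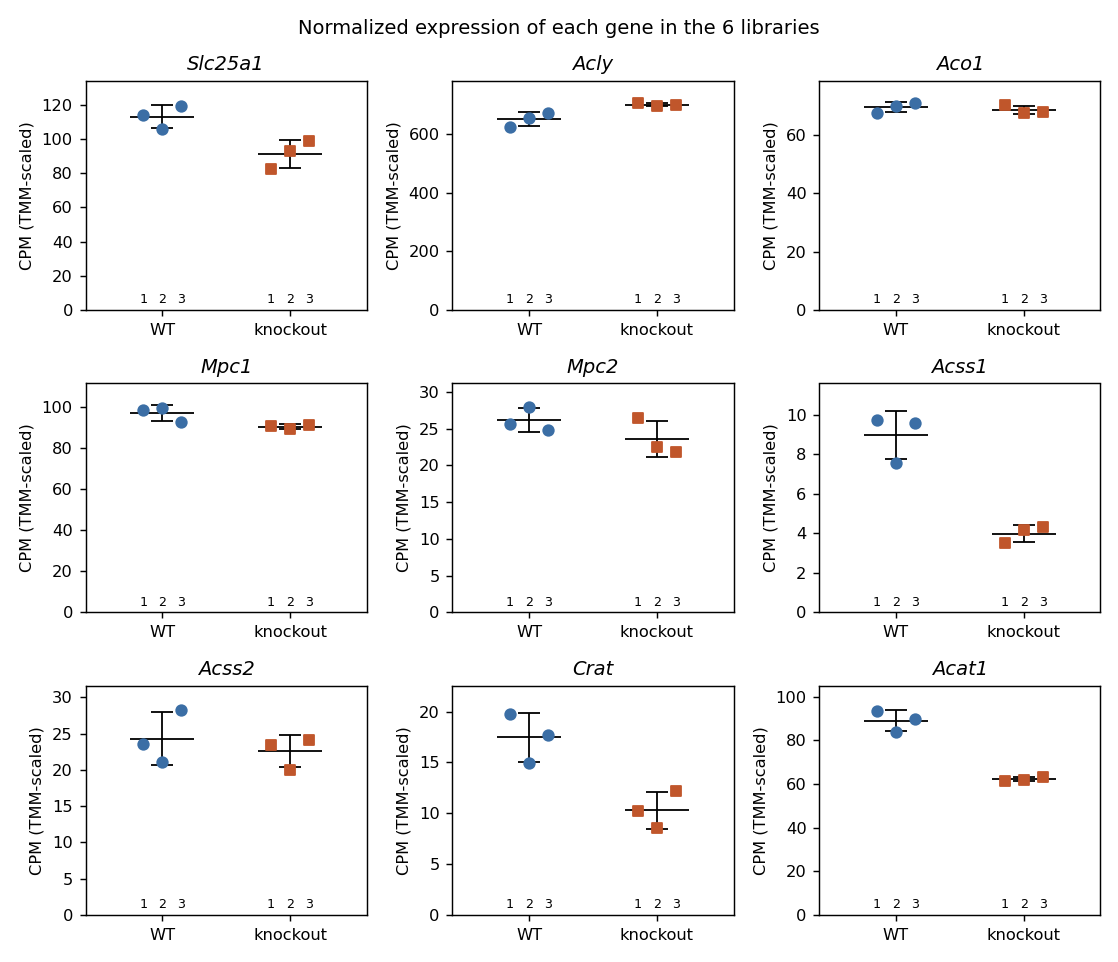
Expression of the 9 genes in CPM (TMM-scaled, linear axes from 0) in 3 WT libraries (circles) and 3 knockout libraries (squares), with replicate numbers along the bottom, the mean as a long line and the SD as error bars (n = 3). Acss1, Crat, Acat1 and Slc25a1 lie lower in every knockout library than in any WT library, while Aco1, Acss2 and Mpc2 overlap between groups.

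The start regions of 4 of the genes are shown because they set consecutive steps (Slc25a1 and Acly) and a pair of enzymes with the same reaction in different compartments (Acss1 and Acss2) side by side. The windows run from 250 bases before to 50 bases after the annotated start, 5′ to 3′ along the gene, from RefSeq on GRCm38.p6: chr16:17928170-17928469 on the minus strand for Slc25a1, chr11:100527951-100528250 on the minus strand for Acly, chr2:155517793-155518092 on the plus strand for Acss2 and chr2:150668191-150668490 on the minus strand for Acss1. Capitals mark CCAAT, the box bound by NF-Y, a factor known to act with SREBP at lipid genes, on either strand (ATTGG where it lies on the opposite strand).
Slc25a1: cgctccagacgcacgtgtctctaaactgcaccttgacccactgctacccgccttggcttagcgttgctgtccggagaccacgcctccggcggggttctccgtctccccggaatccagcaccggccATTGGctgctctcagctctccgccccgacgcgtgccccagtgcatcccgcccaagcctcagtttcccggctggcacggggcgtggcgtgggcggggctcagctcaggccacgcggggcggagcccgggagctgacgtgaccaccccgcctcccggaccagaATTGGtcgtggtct
Acly: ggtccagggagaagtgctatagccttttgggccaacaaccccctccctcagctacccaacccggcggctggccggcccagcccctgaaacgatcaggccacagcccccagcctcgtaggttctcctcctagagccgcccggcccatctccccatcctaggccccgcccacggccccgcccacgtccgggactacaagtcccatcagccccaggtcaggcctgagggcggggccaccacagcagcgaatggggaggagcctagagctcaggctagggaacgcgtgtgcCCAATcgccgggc
Acss2: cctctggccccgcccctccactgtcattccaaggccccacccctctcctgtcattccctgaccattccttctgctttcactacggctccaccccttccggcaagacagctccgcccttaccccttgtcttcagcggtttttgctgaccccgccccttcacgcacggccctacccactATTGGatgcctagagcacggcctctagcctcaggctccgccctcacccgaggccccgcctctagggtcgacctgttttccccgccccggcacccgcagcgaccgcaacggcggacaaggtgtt
Acss1: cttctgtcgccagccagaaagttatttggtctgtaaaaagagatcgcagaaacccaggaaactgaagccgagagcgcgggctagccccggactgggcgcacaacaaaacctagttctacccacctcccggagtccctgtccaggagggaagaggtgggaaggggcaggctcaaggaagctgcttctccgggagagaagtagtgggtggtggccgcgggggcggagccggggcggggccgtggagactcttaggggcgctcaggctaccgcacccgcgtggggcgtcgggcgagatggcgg

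In these windows the CCAAT letters began 125 bases before and 36 bases after the start of Slc25a1, 37 bases after that of Acly and 73 bases before that of Acss2, and Acss1 had none. Of the 9 measured genes 7 had a window, and 5 of those 7 genes held a CCAAT match on either strand (Acly, Acss2, Mpc1, Mpc2 and Slc25a1), against 37.4% of all 32851 windows of the same length. Mpc1 had more than a single window, so a share of genes and a share of windows are not quite the same measure. Among the 5, Slc25a1 fell and the other 4 were not called, and of the 2 genes without a match Acss1 fell and Aco1 was not called. The GC box GGGCGG was present in all 7 genes and in 35.7% of all windows. The windows of the 7 genes held 63.0% to 73.7% G and C, against a median of 52.7% over all windows, which favours matches to such a string. The E-box CACGTG was found in Slc25a1 alone of the 7 (7.15% of all windows), and TGACNNNGC, an antioxidant response element, in Acss2 and Mpc1 (12.4%). No match on either strand was found in the 7 genes for TCACNCCAC (an SREBP element, 1.24% of all windows), TGATGNAA (ATF4, 3.97%), TGACGTCA (the cAMP response element, 1.79%), the NRF1 element (4.60%) or TCAAGGTCA (estrogen-related receptors, 0.423%).

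Of the citrate export genes, the carrier gene fell and the lyase gene was not called. Slc25a1 (ENSMUSG00000003528.16), which encodes the carrier that moves citrate out in exchange for malate, was at 114, 106 and 119 CPM in WT replicates 1 to 3 and at 82.5, 92.7 and 98.8 CPM in knockout replicates 1 to 3. All 3 knockout libraries were below the lowest WT library, and the gap between the nearest libraries was small beside the spread within the knockout group. The gene fell by 0.31 ± 0.08 on the log2 scale (adjusted p = 0.00895), to 0.81 times the WT level (95% interval 0.716 to 0.910). It did not pass a test against a fold change of 1.2 (adjusted p = 0.271).

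Acly (ENSMUSG00000020917.18), which encodes the enzyme that splits exported citrate into acetyl-CoA and oxaloacetate, was at 624, 654 and 670 CPM in WT and at 705, 696 and 698 CPM in knockout. Every knockout library was above every WT library, and the knockout libraries lay close together, with a coefficient of variation of 0.653% against 3.63% in WT. The fitted change was 0.11 ± 0.06 and was not called (adjusted p = 0.163), with a 95% interval from 0.982 to 1.18 times the WT level. It was called as higher with upper-quartile scaling (log2 fold change 0.19, adjusted p = 0.0281) and with a stricter filter on low counts (0.15, adjusted p = 0.0498).

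Within each library the ratio of Acly to Slc25a1 counts does not depend on how libraries are scaled. It was 5.47, 6.17 and 5.62 in WT and 8.54, 7.50 and 7.07 in knockout. The groups did not overlap, and the mean ratio was 1.34 times higher in knockout (difference of log2 ratios 0.42, exact two-sided permutation test p = 0.1, the smallest p that 3 against 3 libraries allow). For Acly over Cs, the citrate synthase gene, the ratio was 1.49 times higher, again without overlap (exact permutation p = 0.1), whereas Slc25a1 over Cs overlapped between groups (1.11 times, exact permutation p = 0.3). Adjusted over the 14 ratios computed, no p was below 0.14.

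Aco1 (ENSMUSG00000028405.10) encodes cytosolic aconitase, which turns citrate into isocitrate and, without its iron-sulfur cluster, binds the RNA of iron genes as IRP1. It was at 67.6, 70.0 and 70.8 CPM in WT and at 70.2, 67.5 and 67.9 CPM in knockout. The groups overlapped, and the change was -0.02 ± 0.06 (adjusted p = 0.799), with a 95% interval from 0.906 to 1.08 times the WT level; the sign of this value turned under upper-quartile scaling and library totals (0.06 and 0.03). Against Ireb2, which encodes the other iron regulatory protein, the Aco1 ratio overlapped between groups (0.97 times, exact permutation p = 0.3).

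For pyruvate entry, neither carrier subunit was called. Mpc1 (ENSMUSG00000023861.18) was at 98.2, 99.5 and 92.3 CPM in WT and at 90.4, 89.1 and 91.3 CPM in knockout. The knockout values lay just below the WT values, with a change of -0.10 ± 0.06 (adjusted p = 0.168) and a 95% interval from 0.857 to 1.02 times the WT level. Mpc2 (ENSMUSG00000026568.7) was at 25.7, 28.0 and 24.9 CPM in WT and at 26.4, 22.5 and 21.8 CPM in knockout. Knockout replicate 1 lay among the WT values and the other two below them, with a change of -0.15 ± 0.09 (adjusted p = 0.214) and a 95% interval from 0.782 to 1.04.

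The 2 subunits work as a heterodimer, and their ratio (Mpc1 over Mpc2 counts) was 3.83, 3.56 and 3.71 in WT and 3.42, 3.95 and 4.18 in knockout. The groups overlapped (1.04 times, exact permutation p = 0.6). The table also lists a Mpc1 pseudogene, Mpc1-ps, with 5.02 ± 2.00 CPM in the WT group and 4.43 ± 1.85 CPM in the knockout group (SD, n = 3; adjusted p = 0.759), so reads can be split between this entry and Mpc1, and the Mpc1 level is uncertain for that reason. Ldha, the gene of the lactate dehydrogenase subunit that draws pyruvate away in the cytosol, fell from 2055 ± 233 to 1420 ± 98.9 CPM. Relative to Ldha, Mpc1 was 1.35 times and Mpc2 1.30 times higher in knockout, both without overlap (exact permutation p = 0.1 for each).

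The acetate-activating pair differed. Acss1 (ENSMUSG00000027452.12), the mitochondrial synthetase gene, was at 9.75, 7.57 and 9.61 CPM in WT and at 3.49, 4.15 and 4.34 CPM in knockout. It rested on 289 to 389 counts in WT libraries and 141 to 153 in knockout libraries, and the groups were far apart. Acss1 fell by 1.17 ± 0.15 on the log2 scale (adjusted p = 0.000286), to 0.44 times the WT level (95% interval 0.351 to 0.562), and only 2.24% of all tested genes had a lower fold change.

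Acss2 (ENSMUSG00000027605.19), which makes acetyl-CoA from acetate in the cytosol and nucleus, was at 23.6, 21.0 and 28.3 CPM in WT and at 23.5, 20.04 and 24.1 CPM in knockout. The groups overlapped, replicate 2 being lowest in each. The change was -0.11 ± 0.12 (adjusted p = 0.474), with a 95% interval from 0.772 to 1.11 times the WT level, and its sign turned when WT replicate 3 was left out (0.01). The Acss2 to Acss1 ratio was 2.42, 2.78 and 2.94 in WT and 6.70, 4.81 and 5.55 in knockout, 2.09 times higher without overlap (exact permutation p = 0.1). The ratio of Acly to Acss2, the enzymes that make cytosolic acetyl-CoA from citrate and from acetate, overlapped between groups (1.16 times, exact permutation p = 0.3).

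Crat (ENSMUSG00000026853.16), the carnitine acetyltransferase gene, was at 19.8, 14.9 and 17.7 CPM in WT and at 10.2, 8.50 and 12.2 CPM in knockout. Replicate 2 was lowest in each group and the groups did not overlap. Crat fell by 0.76 ± 0.15 on the log2 scale (adjusted p = 0.00244), to 0.59 times the WT level (95% interval 0.468 to 0.741). Crot, which encodes the peroxisomal carnitine octanoyltransferase, also fell, from 38.5 ± 3.57 to 28.4 ± 1.40 CPM (SD, n = 3; adjusted p = 0.00223). Its fitted log2 change was smaller (-0.44 ± 0.08), and its call was lost with a B cell marker covariate (adjusted p = 0.224). The Crat to Crot ratio was 0.502, 0.432 and 0.426 in WT and 0.380, 0.290 and 0.419 in knockout, 0.79 times the WT ratio (exact permutation p = 0.1). The groups nearly touched, at replicate 3 of each. Leaving out single libraries gave differences of log2 ratios from -0.446 to -0.18.

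Acat1 (ENSMUSG00000032047.6), the mitochondrial acetoacetyl-CoA thiolase gene, was at 93.4, 83.9 and 89.7 CPM in WT and at 61.3, 62.0 and 63.1 CPM in knockout. The knockout libraries were tightly grouped (coefficient of variation 1.43%) and well below all WT libraries. Acat1 fell by 0.52 ± 0.06 on the log2 scale (adjusted p = 0.00016), to 0.70 times the WT level (95% interval 0.636 to 0.766). Acat2, the cytosolic thiolase gene at the start of sterol synthesis, rose from 123 ± 3.29 to 173 ± 4.80 CPM (SD, n = 3; 0.50 ± 0.05, adjusted p = 0.000116). The Acat2 to Acat1 ratio was 1.30, 1.43 and 1.41 in WT and 2.81, 2.73 and 2.83 in knockout, 2.02 times higher without overlap (exact permutation p = 0.1).

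**Figure D2:**
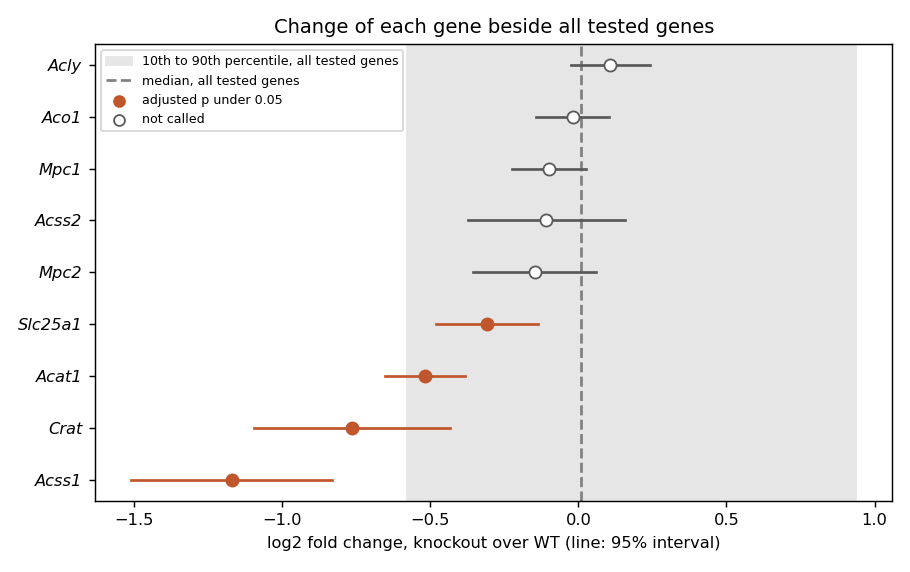
Log2 fold change of knockout over WT for the 9 genes (points) with 95% intervals (lines), filled where adjusted p was under 0.05; the grey band spans the 10th to 90th percentile of all 15361 tested genes (-0.58 to 0.94) and the dashed line is their median. Acss1 and Crat lie below the band, and Acly is the single gene with a value above 0.

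**Figure D3:**
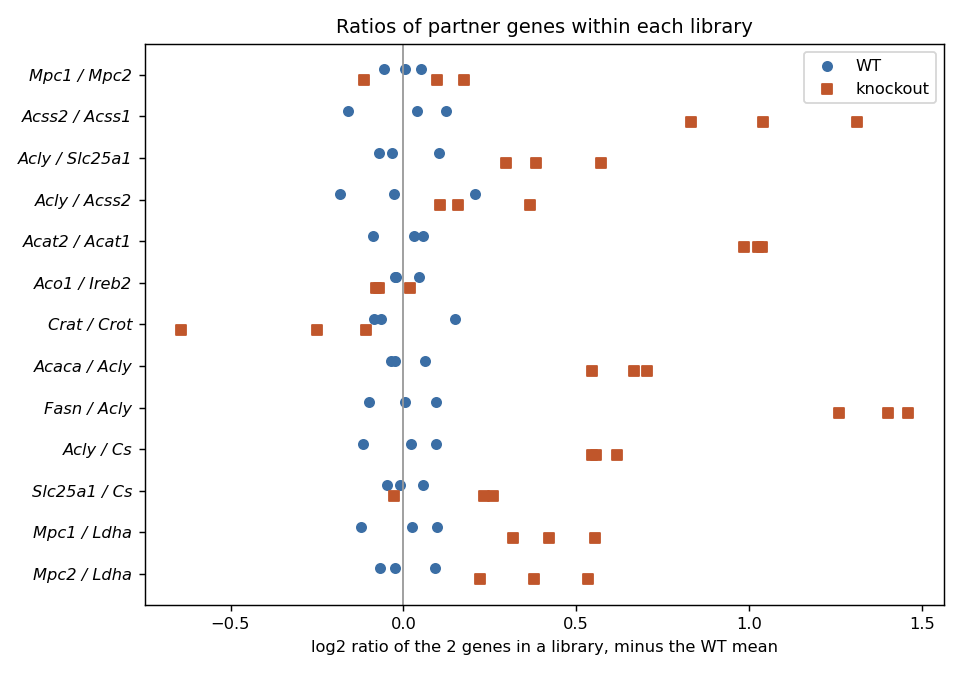
Log2 ratio of 2 genes in each library minus the WT mean of that ratio (horizontal axis), for the gene pairs named here (rows), with WT libraries as circles and knockout libraries as squares. The Fasn/Acly, Acss2/Acss1 and Acat2/Acat1 ratios lie 1.37, 1.06 and 1.02 higher in knockout on average, and Mpc1/Mpc2 and Aco1/Ireb2 overlap between groups.

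The 4 decreases were also read without the libraries that stood apart. Without knockout replicate 2, the adjusted p was 0.00128 for Acss1, 0.00715 for Crat, 0.00101 for Acat1 and 0.0223 for Slc25a1, with log2 fold changes of -1.202, -0.65, -0.52 and -0.32. Without WT replicate 2 and knockout replicates 2 and 3, which leaves knockout replicate 1 alone and takes its spread from the WT libraries, the values were -1.47, -0.88, -0.58 and -0.50, all called (adjusted p from 0.000718 to 0.00313). With the summed B cell markers as a covariate, whose values do not overlap between groups, Acss1 and Acat1 were called and Crat and Slc25a1 were not (adjusted p = 0.132 and 0.149). With Cd74 left out of that sum all 4 were called.

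Levels were compared between genes as CPM per kilobase of the longest coding transcript in GENCODE M21. Of the 15452 deposited gene IDs 15138 matched that annotation, so counting likely used another one, and gene lengths in it may differ. In WT the order was Acly (146.7 ± 5.33), Mpc1 (100.6 ± 4.0), Slc25a1 (67.9 ± 4.07), Acat1 (26.1 ± 1.41), Mpc2 (25.5 ± 1.58), Aco1 (18.1 ± 0.433), Acss2 (8.30 ± 1.26), Crat (4.13 ± 0.579) and Acss1 (2.48 ± 0.338), each with its SD (n = 3). Among neighbours in this order only Acat1 and Mpc2 overlapped. In knockout the order was the same except that Mpc2 (23.0 ± 2.42) stood above Acat1 (18.3 ± 0.261) without overlap, and that Acat1 overlapped with Aco1 (17.9 ± 0.375). With the length of all annotated exons instead, the WT order changed at 3 places: Slc25a1 (52.3) stood above Mpc1 (46.4), Aco1 (15.5) above Mpc2 (3.56) and Crat (3.24) above Acss2 (2.39), so these places rest on the length used. In knockout with that length, Acat1 (16.5) stood above Mpc2 (3.21), so the place of Mpc2 above Acat1 rests on the length too. There Mpc1 (43.35) stood above Slc25a1 (42.2) and Acss2 (2.22) above Crat (1.91), unlike in WT, both with overlapping libraries.

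The wider pathway was read from 7 lists, by the counts of genes that passed the same test, beside a background of 47.6% of all tested genes called, 23.1% higher and 24.5% lower. With the summed B cell markers as a covariate, the number called fell from 7311 to 2240 over all genes, from 8 to 4 in the PDH list, from 12 to 5 in the pyruvate, lactate and malate list, from 11 to 3 in the carnitine and ketone body list, from 6 to 3 in the SREBP and ChREBP list and from 3 to 0 in the iron list. With Cd74 left out of the covariate these numbers were 6205, 7, 9, 10, 6 and 1. In the citrate and isocitrate list the number called fell from 6 to 4 with the covariate, and to 5 with Cd74 left out. In the list of cytosolic users of acetyl-CoA it fell from 6 to 5, and was 6 with Cd74 left out. In the steps around citrate and isocitrate, 6 of 7 genes fell and none rose, with a median log2 fold change of -0.45. Idh2 fell by 0.64 on the log2 scale, Cs by 0.47 and Idh3a by 0.45, and Idh3g had a log2 fold change of -0.14 (adjusted p = 0.208). Idh1, which uses the isocitrate that ACO1 makes in the cytosol, fell from 22.8 ± 1.06 to 19.1 ± 1.40 CPM (SD, n = 3; adjusted p = 0.0333). The Idh1 call was lost with upper-quartile scaling or library totals (adjusted p = 0.135 and 0.113) and when WT replicate 1 or 3 or knockout replicate 2 or 3 was left out (adjusted p from 0.0634 to 0.114). With the B cell covariate the Cs and Idh1 calls were lost (adjusted p = 0.0733 and 0.491), and Idh2 and Idh3a were still called. In the PDH complex with its kinases and phosphatases, 6 of 11 tested genes fell and 2 rose (median -0.22), against 24.5% and 23.1% of all tested genes. Dlat, the E2 subunit gene, fell by 0.68, and Pdk3 and Pdk1, which encode kinases that switch PDH off, fell by 0.47 and 0.45. Pdp2, a phosphatase gene, and Pdpr, which encodes a regulatory subunit of PDH phosphatase, rose by 0.50 and 0.29. The Pdha1 and Pdpr calls were lost with the B cell covariate (adjusted p = 0.175 and 0.113) and against a fold change of 1.2 (adjusted p = 0.0622 and 0.331). The other phosphatase gene, Pdp1, was not called (-0.22, adjusted p = 0.0975).

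Among 16 genes of pyruvate, lactate and malate, 10 fell and 2 rose (median -0.49). Slc16a3, the lactate exporter MCT4, fell from 110 ± 16.8 to 26.2 ± 6.27 CPM (SD, n = 3; adjusted p = 0.000606), Bsg, the chaperone of such exporters, by 0.65 on the log2 scale, the pyruvate kinase gene Pkm by 0.58, Mdh1, the cytosolic malate dehydrogenase gene, by 0.48 and the mitochondrial malic enzyme gene Me2 by 0.42. With the B cell covariate the Mdh1 and Me2 calls were lost (adjusted p = 0.0577 and 0.0745), and Slc16a3, Bsg and Pkm were still called. Ldhb rose with overlapping groups (0.46 ± 0.14, adjusted p = 0.0299), and Me3, at under 1 CPM in every library, rose by 1.34 (adjusted p = 0.0371). Me3 had 8, 3 and 11 counts in WT and 13, 17 and 23 in knockout. Every deposited row reaches 10 counts in 3 or more libraries, and Me3 would not without its knockout values. Its rise is therefore not read as a result, though the count of 2 that rose includes it. The Ldhb and Me3 calls were lost when WT replicate 1 or 2 or knockout replicate 2 or 3 was left out (adjusted p from 0.0757 to 0.128 for Ldhb and from 0.0717 to 0.137 for Me3). They were also lost with the B cell covariate (adjusted p = 0.396 and 0.377). Without WT replicate 2 and knockout replicates 2 and 3, the libraries with the most B cell marker counts beside Cd74, the log2 fold changes were 0.06 for Ldhb and 0.39 for Me3 (adjusted p = 0.672 and 0.638). Of 12 tested genes of carnitine, ketone body and thioester handling, 10 fell and 1, Acat2, rose (median -0.46). Bdh1 and Oxct1, genes of ketone body use, fell by 0.88 and 0.69 on the log2 scale, beside the decrease of Acat1, which acts after OXCT1. Slc22a5, the carnitine importer gene, had a log2 fold change of 0.03 (adjusted p = 0.766).

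Among genes of the cytosolic users of acetyl-CoA, most rose. Of 8 genes, 6 rose and none fell, with a median log2 fold change of 0.53. Fasn, the fatty acid synthase gene, rose by 1.48 on the log2 scale, Acaca, acetyl-CoA carboxylase, by 0.75, and the sterol genes Hmgcs1, Mvd and Acat2 by 0.60, 0.55 and 0.50, while Acacb and Mvk were not called (adjusted p = 0.215 and 0.594). Relative to Acly in the same library, Fasn was 2.59 times and Acaca 1.56 times higher in knockout, both without overlap (exact permutation p = 0.1 for each). Of 10 genes of the regulators SREBP and ChREBP, 3 rose and 3 fell (median 0.03), against 23.1% and 24.5% of all tested genes. Srebf1 and Srebf2 were at 188 ± 15.4 and 478 ± 20.3 CPM in WT and at 192 ± 10.5 and 461 ± 36.3 CPM in knockout (SD, n = 3; adjusted p = 0.737 and 0.583). Insig1, an SREBP target that retains SREBP in the endoplasmic reticulum, rose by 0.49, and Insig2 and Mlx fell by 0.65 and 0.49. With the B cell covariate the Insig1 and Insig2 calls were lost (0.27 and -0.48, adjusted p = 0.339 and 0.113), and Mlx was still called. Mlxipl, which encodes ChREBP, and Nr1h3 rose by 2.34 and 1.45 from means of 0.130 and 0.328 CPM, levels of few counts. Mlxipl had 6, 3 and 6 counts in WT and 26, 21 and 27 in knockout. Every deposited row reaches 10 counts in 3 or more libraries, and Mlxipl does so through the knockout libraries alone. Such a gene can hardly appear in the table without a rise, so its rise is not read as a result. The count of 3 that rose includes it. With the B cell covariate its adjusted p was 0.0498. The Nr1h3 call was lost with that covariate (0.50, adjusted p = 0.568). Without WT replicate 2 and knockout replicates 2 and 3, the Nr1h3 log2 fold change was 1.17.

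Among 12 tested iron genes around Aco1, 2 rose, 1 fell and 9 were not called (median 0.04), against 47.6% of all tested genes called. Slc11a2, an iron importer gene, fell by 0.41 ± 0.08 on the log2 scale, and Ncoa4, whose product delivers ferritin for breakdown, rose by 0.16 ± 0.05 (adjusted p = 0.0328). With the B cell covariate neither gene was called (adjusted p = 0.32 and 0.464). The Ncoa4 call was lost without WT replicate 1 or 3 or any one of the knockout replicates (adjusted p from 0.0747 to 0.0991). The number of called genes in the list fell to 1 without WT replicate 1, WT replicate 3, knockout replicate 2 or knockout replicate 3.

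**Figure D4:**
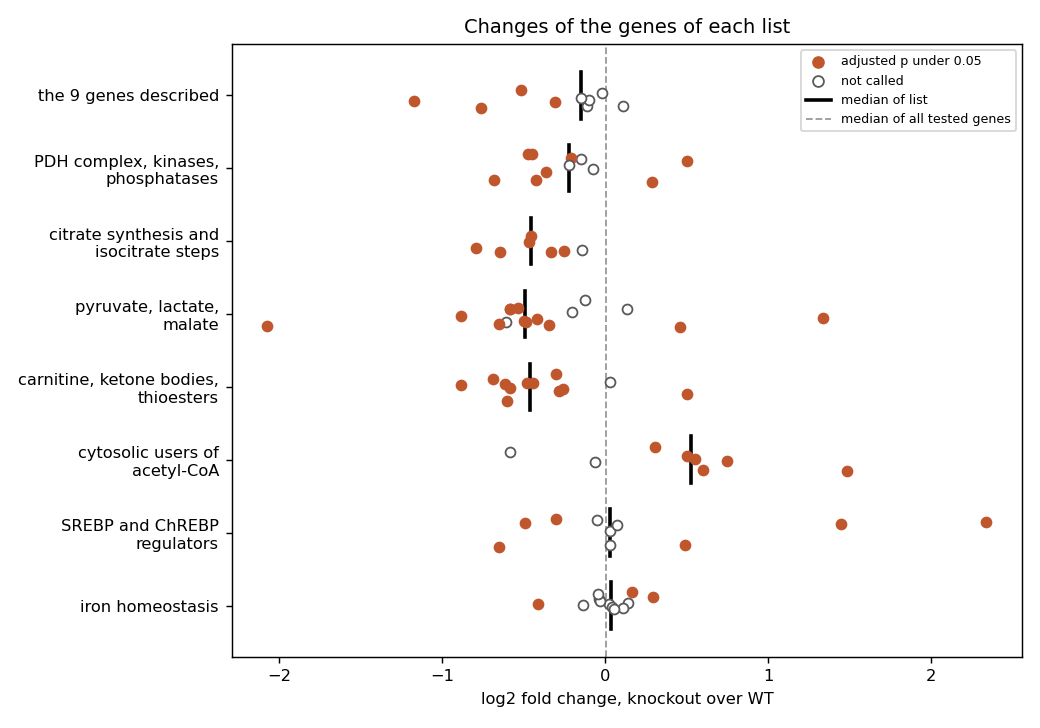
Log2 fold change of knockout over WT (horizontal axis) for each tested gene of 8 lists (rows, points spread vertically for visibility), filled where adjusted p was under 0.05, with the median of each list as a black line and that of all tested genes as a dashed line. The cytosolic users of acetyl-CoA centre on 0.53, and the steps around citrate, the pyruvate and malate genes and the carnitine and ketone body genes centre between -0.49 and -0.45.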

How the data were processed

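RNA-seq of 3 WT and 3 knockout Th17 libraries was analysed from expected counts, the whole-number estimated counts per gene that the authors deposited. Salmon, DESeq2 and DESeq appear in the submitters' processing notes, with neither version nor role. Libraries came from a stranded mRNA kit, per the labels' protocols. Genome build and annotation: not given in the sources used here. Each deposited row reaches 10 counts in 3 or more libraries. Gene IDs were matched without version to GENCODE M21 symbols (15138 of 15452 matched).

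Counts were fitted with edgeR 4.0.16 in R 4.3.3 (filterByExpr, which left 15361 genes, TMM scaling, robust quasi-likelihood fit, genotype as the only term), and p-values were adjusted by the Benjamini-Hochberg method across the 15361 genes (threshold 0.05). The 95% intervals use the standard error and degrees of freedom of that fit. The biological coefficient of variation, edgeR's name for the scatter between libraries beyond counting noise, was 13.8%. No pair of replicates was alike enough to be 1 library (chi-square per degree of freedom at least 24.05). The fit was also run on simulated counts in which far fewer genes changed than were called here, so no conclusion is drawn from that run.

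Ratios of 2 genes within a library (0.5 added to each count) were set against each other by an exact permutation test, two-sided, with 20 assignments. Alternatives were other scalings, DESeq2 1.42.0, limma-voom (limma 3.58.1), other filters, a test against a fold change of 1.2, B cell covariates, a replicate block and leaving out libraries. A covariate without Cd74 was added after seeing the data. The 10 genes and the lists were chosen with earlier results of these data known.

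Genes beyond the 10 were named by a rule: Pdha1, Pdhb and Dlat, the partner genes of the ratios, and up to 4 called genes of each list with the smallest p. Srebf1, Srebf2, Ldhb, Me3, Slc16a3, Pdpr, Pdp1, Nr1h3, Idh3g, Idh1, Slc22a5, Acacb, Mvk, Hmgcs1 and Mpc1-ps were chosen after their values were seen. Some genes that the rule names are not reported here. Figures were drawn with matplotlib 3.10.9.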

Additional observations from a re-analysis of the deposited data

How the results depend on the processing

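Over 20 alternatives, Acss1 and Acat1 fell in all of them (log2 fold changes from -1.47 to -1.07 and from -0.58 to -0.44), Crat in 19 and Slc25a1 in 18, while Mpc1, Mpc2, Acss2 and Aco1 were called in none. Slc25a1 was lost against a fold change of 1.2 (-0.31, adjusted p = 0.271), and with the B cell covariate Slc25a1 (-0.36) and Crat (-0.75) were lost; the cause was not tested. Acly passed with upper-quartile factors (0.19) and with at least 50 counts in 3 libraries (0.15). Upper-quartile factors moved the median of all genes from 0.01 to 0.09 and the share of called genes that were higher from 48.5% to 60.0%.

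Values near 0 changed sign. Aco1 was at 0.059 with upper-quartile factors, 0.025 with library totals, 0.026 with the stricter filter, 0.002 with the B cell covariate and 0.023 without the 3 libraries of raised B cell markers. Acss2 was at 0.098 with the covariate, and Mpc2 at 0.068 without the 3 libraries. Leaving out single libraries gave Acss2 from -0.203 to 0.014, Srebf1 from -0.030 to 0.087 and the log2 Mpc1/Mpc2 difference from -0.008 to 0.137. Srebf2 and Mvk were at 0.028 and 0.020 with upper-quartile factors. Srebf1 was at -0.200 with the covariate and -0.040 with the covariate without Cd74. Ireb2 was at -0.039 with the covariate and Slc22a5 at -0.025 without the 3 libraries.

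Against a fold change of 1.2, 3981 genes were called in place of 7311, with 4 in the PDH list, 7 in the carnitine and ketone list and 0 in the iron list, since that test asks for more. With the B cell covariate the counts were 2240 for all genes, 4 for the PDH list, 5 for the pyruvate and malate list, 3 for the carnitine and ketone list, 3 for the SREBP list and 0 for the iron list. They were 4 for the citrate and isocitrate list and 5 for the cytosolic users of acetyl-CoA. The stricter filter left 3 in the SREBP list, and the covariate without Cd74 left 1 in the iron list, whose count ran from 1 to 3 over single left-out libraries. With the replicate number as a block, 7218 genes and the same 4 of the 9 were called. The numbers were not taken to pair the samples, since same-numbered libraries deviated with correlations of -0.10, 0.09 and -0.26. Me3, Mlxipl, Nr1h3 and Acacb rested on 3 to 66 counts per library, which limits their precision.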
